A study of Mus musculus with 16 samples.

Results

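The erythroid genes described here are Gata1, Klf1, Epor, Car1, Car2, Hba-a1, Alas2, Slc4a1 and Rhag, measured in bone marrow (BM) monocyte-dendritic cell progenitors (MDPs) and common dendritic cell progenitors (CDPs) of mice with and without a mammary tumor. Members were taken by symbol: every noncontrol probe that the deposited spot tables name for one of these 9 genes was used, which gave 10 of the 39429 probes on the array, with 2 probes for Car1 and 1 for every other gene. All 10 passed the detection filter of the 27434 probes tested, but Rhag passed only through tumor-bearing MDPs. Klf1 and 1 of the 2 Car1 probes passed only through MDPs, and Epor passed only through the tumor-free groups. Between MDPs and CDPs, Klf1, Car1 and Car2 were called lower in CDPs with and without tumor, except that 1 of the 2 Car1 probes was not called with tumor and the calls of Klf1 were lost when certain single samples were left out, whereas the α-globin probe Hba-a1 did not differ beyond its error. Between tumor-bearing and tumor-free mice, 9 of the 10 probes had a lower mean in each progenitor, and none passed the test. Epor, counted among them, differed by only -0.01 in MDPs.

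Red blood cells arise from megakaryocyte-erythroid progenitors, a branch that parts from the myeloid line leading to MDPs and CDPs. Gata1 and Klf1 encode the transcription factors that drive this program, and Epor encodes the receptor for erythropoietin. Alas2 catalyzes the first step of heme synthesis in red cell precursors, Hba-a1 encodes α-globin, Car1 and Car2 are carbonic anhydrases of the red cell cytoplasm, and Slc4a1 (band 3) and Rhag are membrane proteins of the red cell. MDPs and CDPs give rise to dendritic cells, and MDPs also to monocytes, so these genes belong to another lineage than that of the sorted cells. Gata1 is also used by megakaryocytes, mast cells and eosinophils, and Car2 by many other cell types.

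The 4 groups were MDPs and CDPs from tumor-free female C57/Bl6 mice (MDP Normal, CDP Normal) and from age-matched females carrying an orthotopic mammary tumor of 1.5 cm grown from PyMT B6 (MDP PyMT, CDP PyMT), with 4 samples in each. PyMT B6 is a cell line from the MMTV-PyMT model, in which a mammary promoter drives the polyoma middle T oncogene, so each tumor is a graft of a single line. Per the methods, each sample combined 2 mice, mice were 9 to 12 weeks old unless stated otherwise, and BM was depleted of lineage-positive cells with a kit before the sort. Such kits carry an antibody to Ter-119, an antigen of maturing erythroid cells. Samples are numbered 2 to 5 in each group. The labels speak of independent experiments but do not tie samples to animals, so p-values measure the spread between these samples.

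The letters that bear on these genes are shown first. RefSeq promoter windows (GRCm38.p6) were at hand for 6 of the 9 genes, which left out Car1, Car2 and Slc4a1. Of these 6 members, 5 held a GATA motif, AGATAA or TGATAA read on both strands, within the 250 bases before the start of transcription, against 16.6% of 32841 promoters searched over the same length. The windows below run 5′ to 3′ along the gene with the motif in capitals (TTATCA and TTATCT are these motifs on the opposite strand). They are shown because they set the called gene Klf1 beside genes that were not called, Hba-a1 and Alas2 among them.
Klf1, chr8:84901875-84901934, + strand: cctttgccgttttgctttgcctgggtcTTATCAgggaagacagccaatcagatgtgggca
Epor, chr9:21963598-21963657, - strand: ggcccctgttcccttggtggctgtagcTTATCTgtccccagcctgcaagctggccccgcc
Hba-a1, chr11:32283462-32283521, + strand: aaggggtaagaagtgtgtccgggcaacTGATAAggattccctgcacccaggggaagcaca
Alas2, chrX:150547304-150547363, + strand: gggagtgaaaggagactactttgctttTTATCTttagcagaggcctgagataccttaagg
Rhag, chr17:40811091-40811148, + strand: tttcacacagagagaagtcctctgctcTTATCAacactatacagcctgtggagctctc
The motif began 31 bases before the start in Rhag, 54 in Epor, 80 in Klf1, 86 in Alas2 and 183 in Hba-a1. Neither spelling was in the window of Gata1. A motif of the kind that Klf1 protein binds, CCNCNCCC on either strand, was in the windows of Gata1, Epor and Alas2 and in 45.9% of all promoters, and in these windows no match of it overlapped a GATA match, though some of its matches overlapped each other. These matches are descriptions of the letters and not of binding.

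The oligos of the 2 Car1 probes and of the Hba-a1 probe are also shown, because the text below turns on which transcript each one reads. All are 60 bases long and none of their letters is set apart by capitals.
Car1, A_52_P317653, chr3:14767486-14767545 (mm9): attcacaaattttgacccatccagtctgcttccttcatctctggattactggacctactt
Car1, A_55_P2099952, chr3:14729567-14729626 (mm9): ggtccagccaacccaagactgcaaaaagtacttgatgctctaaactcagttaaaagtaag
Hba-a1, A_55_P1962303, chr11:32183955-32184014 (mm9): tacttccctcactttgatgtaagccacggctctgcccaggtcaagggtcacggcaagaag
In the deposited annotation both Car1 oligos belong to the same transcript, at positions 615 to 674 and 541 to 600, yet their printed positions on mm9 lie 37.9 kb apart and run in opposite directions. Which of the positions holds was not resolved here, and the Car1 probes are given separately throughout. The Hba-a1 probe is annotated to transcripts of both α-globin genes, Hba-a1 and Hba-a2, so it cannot tell them apart. The other probes lie on mm9 at chrX:7536392-7536451 (Gata1), chr8:87428881-87428940 (Klf1), chr9:21763422-21763481 (Epor), chr3:14900206-14900265 (Car2), chrX:147004993-147005052 (Alas2), chr11:102210256-102210315 (Slc4a1) and chr17:40976929-40976988 (Rhag). Whether a probe lies in an exon or UTR was not looked up, since no annotation of mm9 was used.

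Levels are log2 signals relative to the 75th percentile of the same array, so 0 marks that percentile and each unit is a 2-fold step, and levels are compared only within a probe. Between 58.8% and 71.6% of probes on an array were well above background, and none was saturated. The defining genes of the sorted cells, Flt3, Csf1r, Cx3cr1 and Irf8, were well above background on all 16 arrays. A probe was called when limma gave a Benjamini-Hochberg adjusted p under 0.05 together with a fold change above 1.5, in a fit of the 4 group means on all arrays. Exact two-sided permutation tests of 4 against 4 samples can go no lower than p = 0.0286. In these sorted bulk samples, fewer cells of a type and less RNA per cell cannot be told apart.

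**Figure D1:**
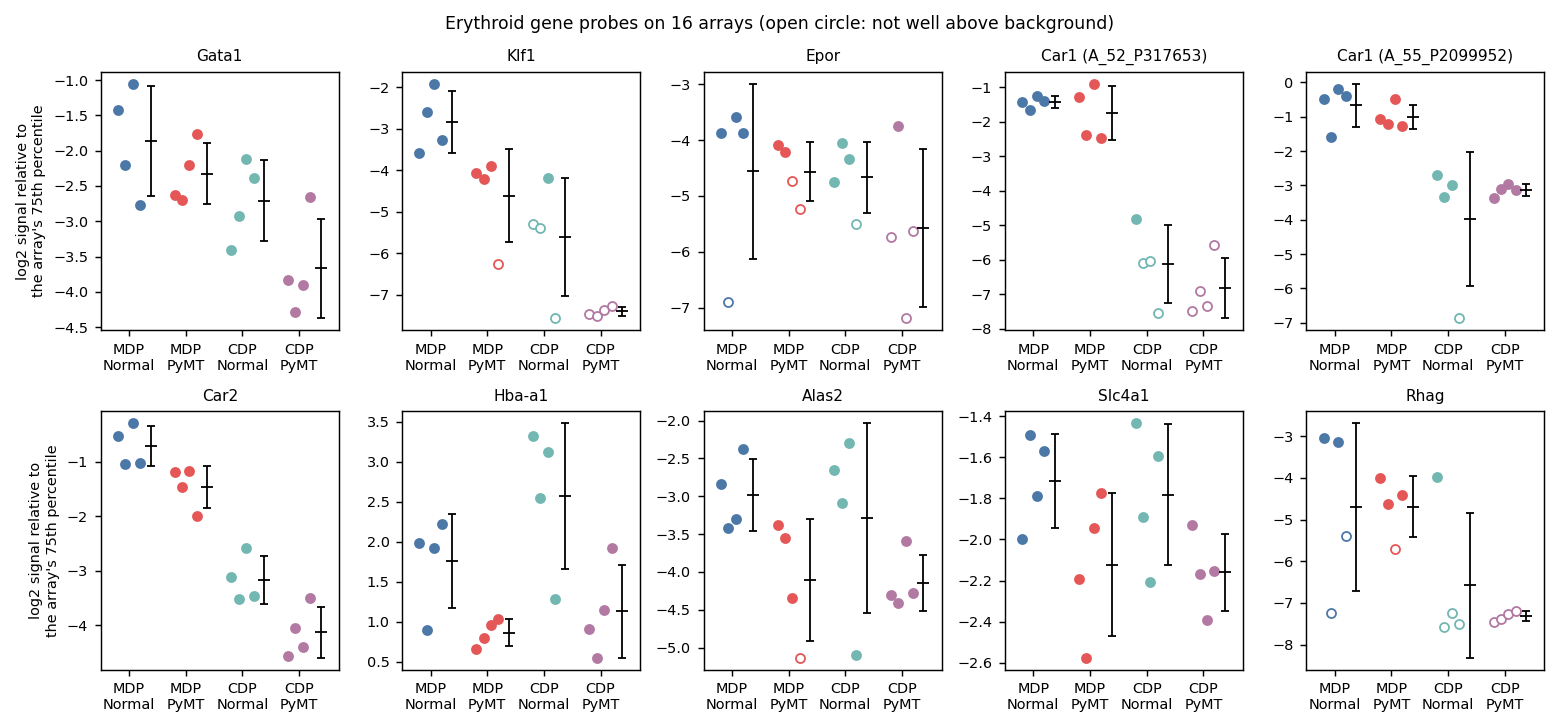
Log2 signal relative to the array's 75th percentile (y axis, a separate scale in each panel) for the 10 probes in the 4 groups (x axis), with 1 circle per array, open where the probe was not well above background, and the mean ± SD of the 4 samples in black beside each group. Klf1, Car1 and Car2 step down from MDPs to CDPs, while Hba-a1 stands at similar or higher levels in CDPs.

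The first question was how these genes differed between the 2 progenitor stages. In tumor-free mice, 4 of the 10 probes were called and all 4 were lower in CDPs, against 3.07% of all tested probes called lower, and the same 4 did not overlap between the groups, against 6.75% of all tested probes. In tumor-bearing mice, 3 of the 10 probes were called lower (3.63% of all tested probes), and 4 lay entirely below MDPs (6.94% of all tested probes), leaving aside Rhag, which did so too but passed the filter only through the MDPs of this comparison. Klf1 and the Car1 probe A_52_P317653, counted in both states, also passed the filter only through MDPs, where they were brighter. Among probes above background on all 16 arrays, 1 of 4 members was called in each state. No member probe was called higher in CDPs in either state, where only 2.94% (tumor-free) and 3.5% (tumor-bearing) of all tested probes were. Among the members, the genes called encode Klf1 and the carbonic anhydrases, whereas Hba-a1 (α-globin), Alas2 and Slc4a1 (band 3) were not called.

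Car1 is the carbonic anhydrase most typical of red cells. With the A_52 probe, its level in MDP Normal samples 2 to 5 was -1.43, -1.65, -1.25 and -1.40, and in CDP Normal it was -4.81, -6.11, -6.04 and -7.56. The MDP samples were tight and the CDP samples were far below them, with only sample 2 of the CDPs above background. The difference was -4.70 ± 0.54 (SE), with an adjusted p of 0.00017. In tumor-bearing mice the probe read -1.28, -2.37, -0.90 and -2.46 in MDPs and -7.49, -6.92, -7.35 and -5.57 in CDPs, where it was above background on none of the arrays. The signal in MDPs was thus at least 11.6-fold higher than in CDPs (adjusted p = 6.9e-05 with limma), a bound taken from the dimmest signals that count as above background. The A_55 probe read -0.48, -1.58, -0.18 and -0.41 in MDP Normal and -2.70, -3.34, -2.99 and -6.87 in CDP Normal. Sample 5 of the CDPs stood far under the other CDP samples and was the only one not well above background. The difference of -3.31 ± 0.69 was called (adjusted p = 0.0096), and without CDP Normal sample 5 it was -2.35 and still called (adjusted p = 0.00069), while a fit on the arrays of these 2 groups alone did not call it (adjusted p = 0.0855). In tumor-bearing mice it read -1.08, -1.21, -0.49 and -1.26 in MDPs and -3.37, -3.09, -2.94 and -3.13 in CDPs, groups that did not overlap, but its difference of -2.12 (95% interval -3.60 to -0.65) missed the threshold (adjusted p = 0.077 with limma). It was called in 7 of 18 alternatives, with adjusted p from 0.0031 to 0.194 over all of them, and with slide as a block it was -2.83 (adjusted p = 0.0371).

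Car2, the widely used carbonic anhydrase, followed the same order and was measured on every array. It read -0.53, -1.03, -0.29 and -1.01 in MDP Normal and -3.10, -3.52, -2.58 and -3.46 in CDP Normal. In tumor-bearing mice it read -1.19, -1.47, -1.17 and -2.0 in MDPs and -4.57, -4.04, -4.39 and -3.50 in CDPs. Car2 was lower in CDPs by 5.47-fold in tumor-free mice (log2 difference -2.45 ± 0.29, adjusted p = 0.0002) and by 6.37-fold in tumor-bearing mice (-2.67 ± 0.29, adjusted p = 7.4e-05, both with limma). It was called in both states under every alternative and with any sample left out. The order of the 4 means was MDP Normal, MDP PyMT, CDP Normal and CDP PyMT, and only the last 2 neighbors overlapped (exact permutation p = 0.0571).

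Klf1, the factor that switches on adult β-globin and many membrane genes, read -3.58, -2.59, -1.91 and -3.26 in MDP Normal, all above background. In CDP Normal it read -5.28, -5.39, -4.19 and -7.57, with only sample 4 above background. The groups did not overlap, and the difference was -2.77 ± 0.64 (adjusted p = 0.0185 with limma). In tumor-bearing mice, MDPs read -4.06, -4.21, -3.89 and -6.26, the last not well above background, and CDPs read -7.46, -7.52, -7.35 and -7.26, all not well above background. The signal in tumor-bearing MDPs was at least 1.61-fold higher than in CDPs (adjusted p = 0.0174). Both calls were lost when a single sample was left out: the first without MDP Normal sample 4 (adjusted p = 0.0601), the second without MDP PyMT sample 2 or 4 or CDP PyMT sample 2 (adjusted p = 0.0541, 0.0598 and 0.0501). In a fit on the compared arrays alone the first was not called either (adjusted p = 0.0688).

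Gata1, which acts upstream of Klf1, was above background on all 16 arrays and was not called. It read -1.42, -2.21, -1.05 and -2.77 in MDP Normal, -3.40, -2.93, -2.11 and -2.38 in CDP Normal, -2.63, -2.70, -2.20 and -1.76 in MDP PyMT and -3.83, -4.29, -3.90 and -2.65 in CDP PyMT. Its means ran in the same order as those of Car2, and every pair of neighbors in that order overlapped (exact permutation p = 0.0857 to 0.371). The difference between CDPs and MDPs was -0.84 (95% interval -1.76 to 0.07, adjusted p = 0.352) in tumor-free mice and -1.34 (-2.26 to -0.43, adjusted p = 0.072) in tumor-bearing mice. Without CDP PyMT sample 5, the highest of its group, the latter was -1.68 and was called (adjusted p = 0.0333).

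Rhag, the ammonia channel partner of the Rh proteins, was near background on most arrays. It read -3.04, -7.25, -3.14 and -5.38 in MDP Normal and -4.01, -4.62, -5.72 and -4.40 in MDP PyMT. In CDP Normal it read -3.97, -7.58, -7.24 and -7.51, and in CDP PyMT -7.45, -7.40, -7.26 and -7.19. Of the 8 CDP samples, only CDP Normal sample 2 was above background. Tumor-bearing CDPs lay entirely below tumor-bearing MDPs, the group through which Rhag passed the filter, so this order is a description, and the difference was not called (adjusted p = 0.0926 with limma). In tumor-free mice the difference was -1.87 with an interval of -3.82 to 0.07.

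The remaining members did not follow the step from MDP to CDP. Hba-a1 read 1.98, 0.90, 1.92 and 2.22 in MDP Normal and 3.31, 2.54, 3.12 and 1.28 in CDP Normal, so 3 of the 4 CDP samples lay above every MDP sample and sample 5 lay below all but sample 3 of the MDPs. The difference was 0.81 (95% interval -0.09 to 1.71, adjusted p = 0.368 with limma). Slc4a1 kept to a narrow range, from -2.0 to -1.49 in MDP Normal and -2.21 to -1.43 in CDP Normal, and its difference of -0.07 had an interval of -0.52 to 0.38. Alas2 ranged from -3.42 to -2.38 in MDP Normal and from -5.10 to -2.30 in CDP Normal, where sample 5 was the lowest, with a difference of -0.30 (-1.45 to 0.84). Epor ranged from -6.90 to -3.58 in MDP Normal and from -5.51 to -4.04 in CDP Normal, with a difference of -0.11 (-1.71 to 1.49). In tumor-bearing mice the differences were 0.27 (-0.63 to 1.17) for Hba-a1, -0.04 (-0.49 to 0.41) for Slc4a1, -0.04 (-1.19 to 1.1) for Alas2 and -1.01 (-2.61 to 0.59) for Epor.

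**Figure D2:**
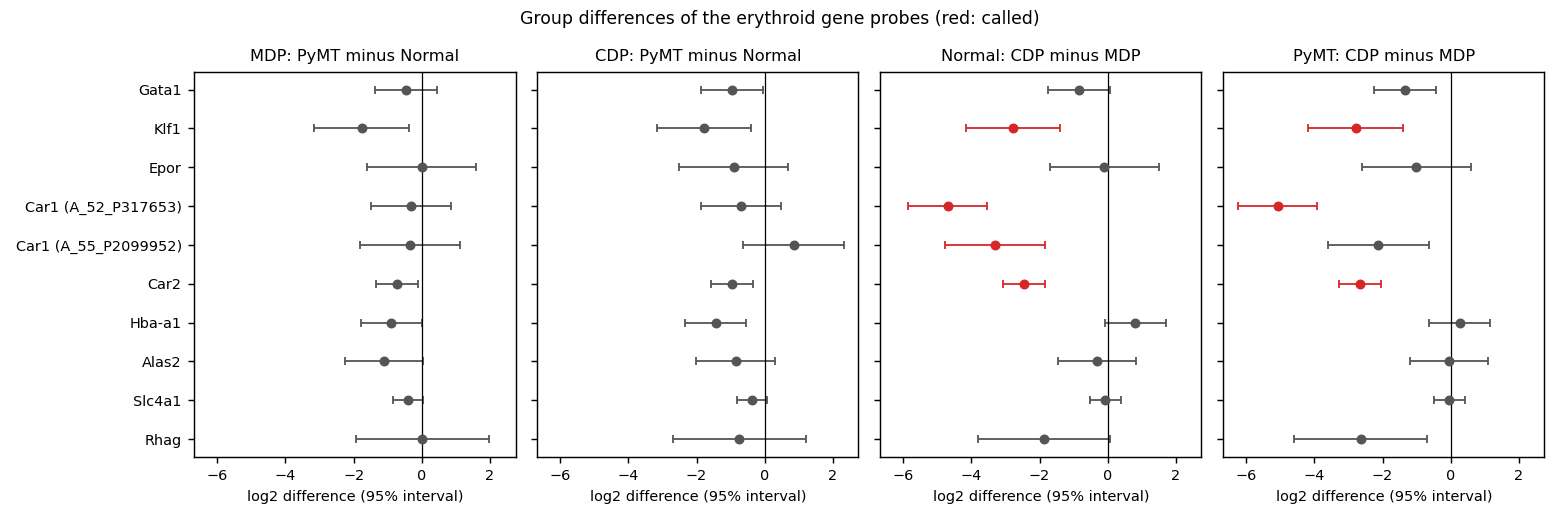
Log2 differences (x axis) of the 10 probes (rows) in 4 comparisons, as points with 95% intervals from the limma fit on 16 arrays, red where the probe was called. The called probes are Klf1, both Car1 probes and Car2 in tumor-free mice and Klf1, 1 Car1 probe and Car2 in tumor-bearing mice, and none is called between tumor-bearing and tumor-free mice.

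The second question was whether these genes differed between tumor-bearing and tumor-free mice within each progenitor. In CDPs, 4 of the 10 probes and 3788 of the 27434 tested had an unadjusted p under 0.05 with limma. After adjustment limma called 0 of the 10, against 1.8% of all tested probes, and the methods' t-test called 0. Likewise 0 of the 10 did not overlap between the groups, against 5.26% of all tested probes with tumor-bearing CDPs entirely lower. In MDPs, 3 of the 10 probes and 2878 of the 27434 tested had an unadjusted p under 0.05 with limma. After adjustment limma called 0 of the 10, against 0.0693% of all tested probes, and the adjusted t-test called 0. Klf1 and Car2 lay entirely lower in tumor-bearing MDPs, against 2.37% of all tested probes. The mean was lower in tumor-bearing mice for 9 of 10 probes in CDPs, where 42.2% of all tested probes were lower, and for 9 of 10 in MDPs, where 59% were. Both counts include Epor, which passed the filter only through the tumor-free groups. Its difference in MDPs was -0.01 and changed sign in 9 of 18 alternatives. The median difference of the 10 probes was -0.89 in CDPs and -0.435 in MDPs, beside 0.08 and -0.10 over all tested probes.

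Hba-a1 had the lowest adjusted p of the members in CDPs. Its level in CDP PyMT samples 2 to 5 was 0.91, 0.55, 1.14 and 1.92, and 3 of the 4 lay below every CDP Normal sample. The means were 1.13 ± 0.58 in tumor-bearing and 2.57 ± 0.91 in tumor-free CDPs (SD over 4 samples), a 2.71-fold difference (log2 -1.44 ± 0.42, SE, adjusted p = 0.108 with limma). Without CDP Normal sample 5 the difference was -1.86 and was called (adjusted p = 0.0293), as it was with slide as a block (-1.57, adjusted p = 0.0167). Within the 3 slides that held both groups it was -1.98, -1.39 and -1.81. In MDP PyMT the probe read 0.65, 0.79, 0.95 and 1.04, below 3 of the 4 MDP Normal samples, and the difference was -0.90 (95% interval -1.79 to -0.001, adjusted p = 0.475). The probe of the second α-globin gene, Hba-a2, differed by -1.39 in CDPs (adjusted p = 0.0793) and by -0.99 in MDPs (adjusted p = 0.407). Of the β-globins, Hbb-b2 fell by 1.68 in CDPs and was called (adjusted p = 0.0276), and Hbb-b1 and Hbb-bt differed by -1.82 and -1.51 (adjusted p = 0.214 and 0.208). The embryonic globins Hbb-y and Hba-x differed by 0.79 and -1.19 in CDPs (adjusted p = 0.772 and 0.375), Hbb-y being the only tested globin with a higher mean in tumor-bearing CDPs. Globin probes share sequence between gene copies, so these values are not independent of each other.

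Klf1 differed most in MDPs, where every tumor-bearing sample was below every tumor-free one, with means of -4.61 ± 1.11 and -2.84 ± 0.74 (SD over 4 samples). The difference was -1.77 (95% interval -3.15 to -0.39), a 3.41-fold lower signal with an adjusted p of 0.399 in limma and the smallest p that the exact permutation test allows. Within the 3 slides that held both groups it was -1.39, -0.62 and -3.0. In CDPs the difference was -1.79 (-3.17 to -0.41, adjusted p = 0.201), and since 7 of the 8 samples were not well above background no fold is given.

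Car2 was 1.67-fold lower in tumor-bearing MDPs without overlap (-0.74, 95% interval -1.36 to -0.12, adjusted p = 0.423 with limma). In CDPs it was 1.95-fold lower (-0.96, -1.58 to -0.34, adjusted p = 0.119), and the groups overlapped by 1 sample on each side. Gata1 differed by -0.96 in CDPs (-1.88 to -0.05, adjusted p = 0.33) and by -0.46 in MDPs (-1.38 to 0.45). Alas2 ranged from -4.41 to -3.60 in CDP PyMT and from -5.14 to -3.38 in MDP PyMT, and its differences were -0.86 (-2.0 to 0.28) and -1.12 (-2.26 to 0.03). Slc4a1 ranged from -2.39 to -1.93 in CDP PyMT and from -2.58 to -1.77 in MDP PyMT, with differences of -0.38 (-0.83 to 0.07) and -0.41 (-0.86 to 0.04). The intervals of Epor, Rhag and both Car1 probes spanned 0 in both progenitors. Epor read -5.75, -3.74, -7.20 and -5.62 in CDP PyMT and -4.09, -4.22, -4.73 and -5.24 in MDP PyMT.

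Whether the tumor-associated difference itself differed between CDPs and MDPs was tested as the interaction in the same fit. With limma 0 of the 10 probes were called, against 0.0146% of all tested probes. An unadjusted p under 0.05 was found for 0 of the 10 and for 1118 of the 27434 tested. The estimates ran from -0.90 for Epor (95% interval -3.16 to 1.36) to 1.19 for the A_55 probe of Car1 (-0.90 to 3.28). For Klf1 it was -0.02 (-1.97 to 1.93) and for Hba-a1 -0.54 (-1.81 to 0.73). The intervals are wide, so these samples do not show that the differences were alike.

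The spread between samples of a group differed widely among the members. The pooled within-group SD was 0.29 for Slc4a1, 0.42 for Car2, 0.62 for Hba-a1 and 0.64 for Gata1, the members above background on every array, where the median over such probes was 0.36 and the 90th percentile 0.71. It was 0.80 for Alas2, 0.82 and 1.04 for the Car1 probes, 0.97 for Klf1, 1.13 for Epor and 1.38 for Rhag, against a median of 0.44 and a 90th percentile of 1.12 over all tested probes. For Alas2, Klf1, Epor, Car1 and Rhag this spread includes samples that were not well above background, where the log2 signal moves by large steps. For Alas2 this was MDP PyMT sample 5 only. Slc4a1 was thus quieter than the typical probe, and Rhag was more variable than 95.5% of tested probes.

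Of the 16 samples, 2 stood out. With each gene given by its brighter probe and scaled to its own SD, the mean deviation over the 9 genes was -1.12 in CDP Normal sample 5 and -0.78 in MDP Normal sample 3, and it lay between -0.28 and 0.62 in the other 14. CDP Normal sample 5 was the lowest of its group for 5 of the 9 genes and the highest for none, and MDP Normal sample 3 was the lowest for 6. The share of probes well above background on these arrays, 64.3% and 63.6%, was the lowest of their own groups, where the other samples ranged from 66.1% to 71.6% and from 65.8% to 71.2%. Both were on slide 1, where this share ran from 58.8% to 64.3%, against 69.4% to 71.6% on slide 4. The 2 tumor-bearing MDP samples on slide 1 had shares of 60.7% and 58.8% and deviated by 0.21 and 0.19. The part of slide and detection in the low values was not tested. On CDP Normal sample 5 the megakaryocyte-like genes summed to 3.43, the highest of all arrays, while the erythroid members were low.

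**Figure D3:**
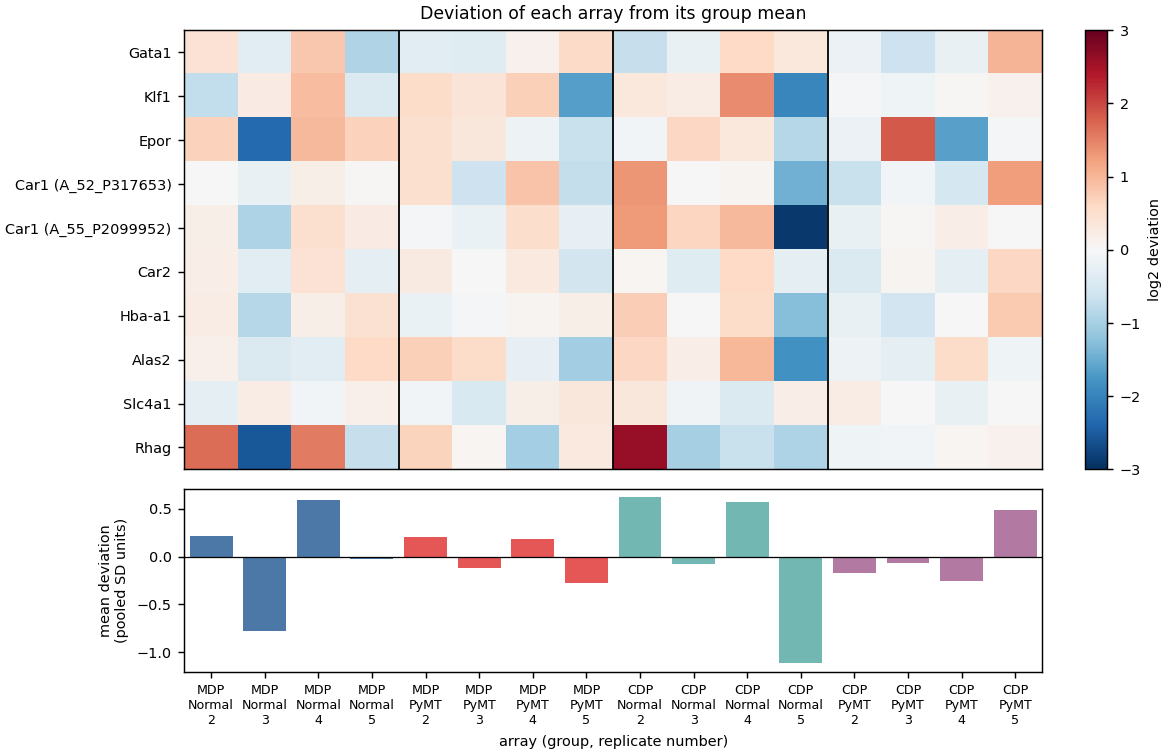
Top, the deviation of each array (columns, 4 per group) from its group mean in log2 units for the 10 probes (rows), with red above and blue below the mean. Bottom, the mean deviation over the 9 genes in units of each gene's pooled SD, lowest in CDP Normal sample 5 at -1.12.

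Pairs of members deviated together to varied degrees. Over the 45 pairs of probes the within-group Pearson r across 16 arrays had a median of 0.33, was positive in 33 and ran from -0.53 to 0.81. The closest pair of different genes was Hba-a1 with the A_55 probe of Car1 (r = 0.81), followed by that Car1 probe with Alas2 (0.77) and Klf1 with Alas2 (0.70), whereas Gata1 with Klf1 gave -0.04. The arrays share slide and depth, and CDP Normal sample 5 enters all these values. Among 17169 other genes, the 10 whose deviations were most like the mean of the members were Amph (r = 0.83), Lhfp, Spsb2, Armc6, Hba-a2 (0.80), Fam126b, Zdhhc14, Srgap1, Exoc7 and Frem3 (0.785), of which Hba-a2 is the only globin. Amph and Frem3 were well above background on 9 and 5 arrays. Hba-a1 alone was most like Hba-a2 (0.91), Ass1 and Plekhg6. Klf1 was most like 4933417D19Rik (0.84), Slc35d2 and Ramp2, Car1 most like Rrp12 (0.91), Asns and Syde2, and Gata1 most like AI415730 (0.88), Ubn2 and Arid2.

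The wider erythroid program was read from 6 lists of genes, members included, of which 88 had a tested probe. The lists were chosen with earlier results of these data known, so their shares are descriptions and not independent of the members. Between CDPs and MDPs, 18 of the 88 genes (20.5%) were called in tumor-free mice, against 6.77% of all genes given by their brightest tested probe, and 13 of the 18 were lower in CDPs. In tumor-bearing mice 18 of 88 were called, 13 of them lower, against 7.88% of all genes. Between tumor-bearing and tumor-free CDPs, 6 of 88 were called (1.95% of all genes), and 4 of these were lower in tumor-bearing mice. In MDPs 0 of 88 were called with limma (0.0869% of all genes), 14 had an unadjusted p under 0.05, and 0 were called by the adjusted t-test. Over all 27434 tested probes, 2878 had such an unadjusted p in MDPs. Without CDP Normal sample 5 the counts in tumor-free mice and in CDPs were 16 and 6. Over all tested probes these fits called 1493 and 209, against 1650 and 493 with every sample.

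Among the factors and partners of Gata1 and Klf1, 3 of 18 tested genes rose from MDPs to CDPs and 4 fell in tumor-free mice, where 6.77% of all genes were called. Gata2, the GATA factor of earlier progenitors, fell by 2.82 (adjusted p = 0.037), Tal1, a partner in the GATA complex, by 1.28, and Myb, which sustains immature progenitors, by 0.92. Klf3, a repressor that binds the sites of Klf1, rose by 1.59, E2f2, a cell-cycle factor, by 1.37 and the corepressor Cbfa2t3 by 1.03. In tumor-bearing mice Klf3, E2f2 and Cbfa2t3 rose by 1.70, 1.49 and 0.75, Myb fell by 1.31 and Tal1 by 0.96, and Gata2 differed by -2.57 (adjusted p = 0.0511). With tumor, no gene of this list passed the test in limma, and after Klf1 the lowest difference was that of Gfi1b, a repressor of the erythroid and megakaryocyte lines, in MDPs (-1.31, adjusted p = 0.474).

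Of the 20 genes for heme synthesis and iron, 3 fell from MDPs to CDPs in tumor-free mice and 5 in tumor-bearing mice, and none rose, beside 6.77% and 7.88% of all genes called in either direction. Alas1, the housekeeping form of the enzyme that Alas2 provides in red cells, fell by 1.37 (adjusted p = 5e-05) and 0.88. Tfr2, a transferrin receptor of the liver and erythroid cells, fell by 2.84 and 1.90, and the ferrireductase Steap3 by 0.92 and 0.88. The mitochondrial iron importer Slc25a37 and the transporter Abcg2 fell by 0.89 and 1.07 in tumor-bearing mice. Alas1 was the only gene of the list called with tumor, and it rose by 0.68 in tumor-bearing CDPs (adjusted p = 0.0247). Tfrc, the transferrin receptor that supplies iron to red cell precursors, differed by 1.18 in tumor-bearing MDPs (adjusted p = 0.35) and by -0.37 in CDPs (adjusted p = 0.772).

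In the list of red cell membrane and skeleton, Icam4 fell by 1.61 from MDPs to CDPs in tumor-free mice and fell by 2.25 in tumor-bearing mice, Rhd, the Rh antigen, fell by 1.28 and by 1.45, while Tspan33 rose by 1.42 and 1.13. Aqp1, the water channel of the red cell, was above background on all 4 arrays of CDP Normal and none of CDP PyMT, at least 2.8-fold (adjusted p = 0.0276 with limma), and Tspan33 fell by 1.03 in tumor-bearing CDPs. Aqp1 was also lower in tumor-bearing CDPs than in tumor-bearing MDPs, by at least 2.92-fold (adjusted p = 0.0092), with 2 of 4 MDP samples above background. Ahsp, the chaperone of α-globin, differed by -1.27 in CDPs and -1.14 in MDPs with tumor and was not called. Of the red cell enzymes other than Car1 and Car2, Pklr fell by 2.53 from MDPs to CDPs in tumor-free mice (adjusted p = 0.0419), with 1 of 4 CDP samples above background.

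Around the erythropoietin receptor, Jak2, the kinase that Epor signals through, rose from MDPs to CDPs by 1.1 without and by 0.72 with tumor. Socs3, a feedback inhibitor of several cytokine receptors, rose by 3.39 in tumor-bearing CDPs (adjusted p = 0.009), whereas Cish, the feedback gene tied to STAT5, differed by 1.24 there (adjusted p = 0.664) and by -1.34 in MDPs (adjusted p = 0.598). Pim1, a kinase induced by the same signals, differed by 1.37 in CDPs (adjusted p = 0.0518) and by 1.64 in MDPs (adjusted p = 0.111). From MDPs to CDPs Kit fell by 2.59 in tumor-free mice and fell by 3.82 in tumor-bearing mice, and it fell by 1.34 in tumor-bearing CDPs. Kit is a surface receptor by which such progenitors are commonly gated, and the marker list of the gate was not used here, so its difference between the stages is not read as a result. Without Kit, 17 of 87 genes (19.5%) were called in each of the 2 steps from MDP to CDP, 12 of them lower in each. Over all genes 6.77% and 7.88% were called. In CDPs with tumor 5 of 87 (5.75%) were called, 3 of them lower, against 1.95% of all genes.

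Markers of other cells moved along with these comparisons, given here as the level summed over each list in each sample. With tumor, 15 megakaryocyte-like genes went from 2.05 to 2.39 in MDP Normal to 1.18 to 2.03 in MDP PyMT, and from 2.56 to 3.43 in CDP Normal to 1.53 to 2.53 in CDP PyMT, lower in both progenitors without overlap. Of 13 of these genes tested, 1 was called lower in tumor-bearing CDPs and 0 in MDPs, where 1.95% and 0.0869% of all genes were called. The median change of the 13 was -0.26 in CDPs and -0.79 in MDPs. In CDPs the sum fell mostly with Itgb3, whose mean went from 1.06 to -0.87. Gp1bb and Tubb1 went the other way there, from -0.94 to -0.72 and from -3.09 to -2.74. Among the defining genes, Pf4 and Itga2b were above background on 15 and 16 arrays, and Gp9 on 4. The 11 macrophage-like genes summed to 2.07 to 2.31 in MDP Normal and 1.38 to 1.86 in MDP PyMT, and overlapped in CDPs. In CDPs, the sum of 13 neutrophil-like genes was higher with tumor, at 6.17 to 6.70 against 5.29 to 5.76, with 4 of 12 tested called higher. Ltf, Camp, Ngp and Retnlg went the other way, with Ltf from -3.05 to -3.50 and Camp from -2.39 to -3.04. The sum of 8 T or NK cell-like genes was higher too, at 1.39 to 1.70 against 1.17 to 1.31. Of 6 of these genes tested, however, 0 were called higher and 1 was called lower. The mean of Nkg7 was 0.60 in CDP Normal and 1.11 in CDP PyMT, whereas that of Klrd1 was -1.82 and -6.39. The sum of the 8 genes of the sorted cells themselves was slightly lower in tumor-bearing CDPs, at 5.95 to 6.01 against 6.05 to 6.22. Csf2rb went the other way, from 2.84 to 3.36, and Cebpa hardly moved.

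From MDPs to CDPs, the sum of 10 mast or basophil-like genes was lower without overlap. It was 3.0 to 3.16 against 0.64 to 1.90 in tumor-free mice and 3.04 to 3.16 against 1.82 to 2.31 with tumor. Ms4a2 and Cma1 were not well above background on any array. Of 5 tested, 2 were called lower without tumor and 1 with tumor, against 6.77% and 7.88% of all genes called, and 0 higher. In tumor-free mice mean Hdc went from 1.94 to -2.28, whereas Fcer1a rose from -4.84 to -3.61 and Tpsb2 from -1.21 to -1.03. With tumor Tpsb2 rose from -1.62 to -0.97. The sum of the T or NK cell-like genes was lower in the same way, at 3.73 to 3.86 against 1.17 to 1.31 and 3.76 to 4.18 against 1.39 to 1.70, led by Nkg7. In tumor-free mice mean Nkg7 went from 3.72 to 0.60, whereas Klrd1 rose from -5.63 to -1.82. Of 6 of these genes tested, 1 was called higher and 1 lower there, with a median change of 0.06. With tumor 0 were called higher and 1 lower, with a median change of 0.64. In tumor-free mice the sum of the neutrophil-like genes was lower in CDPs, at 5.29 to 5.76 against 6.22 to 6.66. Of 12 tested, 4 were called lower and 2 higher, and Mmp9 was not well above background on any array. There the sums of the megakaryocyte-like genes and of the genes of the sorted cells were higher in CDPs without overlap. Of 13 megakaryocyte-like genes tested, 0 were called in either direction. Of the 8 genes of the sorted cells, 0 were called higher and 2 lower. Among these 8, Kit went from 1.65 to -0.94 and Cd34 from 2.80 to 1.65. With tumor the sum of the macrophage-like genes was higher in CDPs, at 2.08 to 2.71 against 1.38 to 1.86, with 0 of 10 tested called. The B cell-like genes overlapped in every comparison, with Ms4a1 not well above background on any array. The part of these cell types in the erythroid differences was not tested.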

How the data were processed

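Sorted MDPs and CDPs were hybridized on 16 one-color (Cy5) Agilent arrays. For each array the authors deposited the spots read by Agilent Feature Extraction (version 11.5.1.1), with a processed signal, an intensity that was background-subtracted and detrended but not scaled between arrays, and flags of other kinds, such as signal well above background. A deposited table of log2 values matched the quantile-normalized log2 processed signals (lowest r 0.99982) and served as an alternative.

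Control spots and outlier spots (182 to 289 on an array) were dropped. Processed signals were taken to log2, set relative to the 75th percentile of their array and averaged by probe. Testing was by limma 3.58.1 in R 4.3.3, over probes detected on 3 or more of the 4 arrays of any group (27434, of which 27301 had a value everywhere). Calls needed an FDR under 0.05 and a fold above 1.5, as in the methods. The number of arrays limits the precision. Slides were read from the array identifiers, and each slide had its own scan. Groups were unevenly spread over slides: MDP PyMT had 2 arrays on slide 1 and none on slide 4. CDP PyMT had 2 arrays on slide 4 and none on slide 1. Tumor-bearing MDPs and CDPs shared 2 slides, so slide and stage are partly confounded in that step. Scripts were tested on simulated data. Alternatives were background correction, scaling, filters, the value table, blocks, the samples fitted, the test and single samples left out. The runs of the pathway counts without CDP Normal sample 5 or MDP Normal sample 3, or without Kit, were chosen after seeing the data. The members and lists were chosen with earlier results of these data known. Named genes were the members, list genes called in a comparison, the 2 largest changes either way in a list (given only in part), and the genes most like the members, each by its brightest tested probe.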

Additional observations from a re-analysis of the deposited data

Results flagged for a closer look

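Of 40 sets of 4 samples (10 probes in 4 groups), 5 held a sample so far from the other 3 that its gap to the nearest, divided by the range, was above 0.829. About 1 in 20 sets would do so by chance. Klf1 in MDP PyMT sample 5 was low at -6.26, not well above background, with its nearest neighbor at -4.21 (ratio 0.866). Epor in MDP Normal sample 3 was low at -6.90 with its neighbor at -3.88 (0.91). The A_55 probe of Car1 in CDP Normal sample 5 was low at -6.87 with its neighbor at -3.34 (0.846). Rhag in CDP Normal sample 2 was high at -3.97 with its neighbor at -7.24 (0.904). Alas2 in CDP PyMT sample 4 was high at -3.60 with its neighbor at -4.28 (0.841), and all 4 samples of that group were well above background. No member showed a tumor-associated difference that differed between CDPs and MDPs past the threshold.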

How the results depend on the processing

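With tumor, none of the 10 probes was called in CDPs or MDPs (0 and 0), and the step from MDP to CDP called 4 without tumor and 3 with tumor. In CDPs the count was 1 with slide as a block (1241 of all tested probes called) and 3 with the methods' t-test before adjustment (2064). Leaving out single samples gave 0 to 1, the 1 being Hba-a1 without CDP Normal sample 5, where 209 of all tested probes were called. In MDPs that t-test gave 3 (1019 of all tested probes). For the tumor-free step the count was 1 with probes above background on all 16 arrays (1550 of all tested probes), where Klf1 and both Car1 probes were no longer tested. It was 2 with only the compared arrays (1382) and 2 with the adjusted t-test (1277). For the tumor-bearing step it was 6 with quantile normalization (1902 of all tested probes) and 1 with the filter on all 16 arrays (1813). It was 5 with the deposited value table (1702), 5 with only the compared arrays (783) and 6 with the t-test before adjustment (4153). Apart from the changed tests, the cause was not tested. Whether the replicate numbers pair the samples is not settled here. Deviations of same-numbered samples correlated between -0.63 and 0.48, but most such samples lay on different slides. With the replicate block the counts were 0, 0, 4, 3 and, for the interaction, 0.
Over the single probes, 671 alternatives gave the same verdict, 23 passed the threshold only there, 9 no longer did and 33 changed sign, all 33 in differences that were not called. Of these, Epor in MDPs with tumor was 0.304 with quantile normalization, 0.005 with median scaling, 0.303 with the value table and 0.5 with slide as a block. With slide as a block, the A_55 probe of Car1 in MDPs was 0.007 and Slc4a1 in the tumor-bearing step 0.041, and with normexp Rhag in MDPs was -0.382. Leaving out single samples, the tumor difference in CDPs ran from -0.124 (without CDP Normal sample 5) to 1.268 for the A_55 probe of Car1 and from -1.081 to 0.122 for Rhag, and in MDPs from -0.791 to 0.315 for Epor and from -0.834 to 0.572 for Rhag. The tumor-free step ran from -0.887 to 0.219 for Epor, -0.632 to 0.301 for Alas2 and -0.184 to 0.074 for Slc4a1, and the tumor-bearing step from -0.389 to 0.197 for Alas2 and -0.19 to 0.077 for Slc4a1. Signal near background limits Klf1, Epor, Rhag and, in CDPs, Car1.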
